A study of Homo sapiens with 47 samples.

Results

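The RNAs of 10 genes were followed through the deposited binding sites: TIA1, TIAL1, MATR3, RAVER1, U2AF1, U2AF2, ELAVL1, KHSRP, PCBP1 and PCBP2. All 10 encode RNA-binding proteins that recognise U-rich, AU-rich or C-rich RNA or that work beside PTBP1. A site was counted for a gene when its midpoint lay within the gene's RefSeq span in hg38, on the gene's strand. The 10 genes were chosen by name, from 20037 protein-coding genes considered, and held 3858 of the 2232378 sites in the 17 lists.

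The sites came from uSpyCLIP-seq, which fixes a tagged protein to the RNA it touches with UV-C light and pulls the pair out by letting SpyTag and SpyCatcher join covalently. All cells were Lenti-X 293T, a human embryonic kidney line used for making lentivirus, and stably expressed the protein under study, so every list reports an introduced protein in 1 cell line. RBFOX2 was profiled from 10000000 cells, and PTBP1 from 1000, 10000, 100000 and 10000000 cells, with 2 libraries per group. SpyCatcher 2.0 was set against SpyCatcher 1.0 at amounts of 20 and 40 µg, 1 library for each. For these the sample labels give neither the captured protein nor the number of cells, and the names of the lists give PTBP1. dPspCas13b and dRfxCas13d, the catalytically inactive forms of RNA-guided RNA-cutting enzymes, were each profiled with the guides EZH2g1 and EZH2g2, against the protein with no guide, with 3 libraries per group. Crosslinked cells were irradiated before lysis in each of these groups. Each group has 1 list of positions with no read counts, so the depth is unknown, no test between groups was possible, and the intervals given here cover counting error only. The lists also hold no RNA levels, so more copies of an RNA and more crosslinking per copy cannot be told apart.

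PTBP1 binds pyrimidine-rich RNA and often represses the use of nearby exons. TIA1 and TIAL1 bind U-rich RNA beside 5′ splice sites and help the U1 ribonucleoprotein to recognise them, while U2AF2 binds the pyrimidine tract before the 3′ splice site and its partner U2AF1 contacts the AG at the intron's end. Many RNA-binding proteins also bind their own transcripts and those of related proteins, which can change how these transcripts are spliced.

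Clusters, as the narrow sites of PTBP1, RBFOX2 and the SpyCatcher lists are called here, were dense in most of the 10 genes. RBFOX2 placed 416 of them in 9 of the 10 genes, where 39.1% of protein-coding genes had one. The 10 spans held 154, 723, 942 and 1120 clusters in the PTBP1 lists of 1000, 10000, 100000 and 10000000 cells. This was 49.8, 29.1, 12.2 and 11.6 clusters per 10000 in those lists, so the lists from fewer cells held a larger share in these genes. At least 1 cluster was present in 8, 8, 10 and 10 of the 10 genes, against 31.0%, 46.2%, 56.2% and 60.3% of all protein-coding genes. SpyCatcher 2.0 at 20 µg gave 137 clusters in 9 genes, against 96 in 7 genes for SpyCatcher 1.0, and 27.0% and 22.7% of protein-coding genes had a cluster in those lists. At 40 µg SpyCatcher 2.0 gave 148 clusters in 7 genes, against 95 in 7 genes for SpyCatcher 1.0, and the shares of protein-coding genes were 28.2% and 23.7%. The median density at 10000000 cells was 4.57 clusters per kb of span in the 10 genes and 0.170 per kb in protein-coding genes. No site in any list lay antisense to the 10 genes. For RAVER1 and ELAVL1 the strand was itself inferred from the PTBP1 clusters of 10000000 cells, of which all 52 and all 134 lay on the minus strand.

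TIA1, on chromosome 2 (hg38 chr2:70209444-70248793, minus strand), held 28, 168, 221 and 186 clusters in the PTBP1 lists of 1000, 10000, 100000 and 10000000 cells. The number was thus highest at 100000 cells, and the list of 10000 cells already held nearly as many as that of 10000000. Its share of the list was 4.70 times (95% interval 3.04 to 7.01) that at 10000000 cells when 1000 cells were used, and 3.51 times (2.83 to 4.35) with 10000 cells. Such ratios carry exact conditional intervals for 2 counts. The clusters collected in segment 8 when the span was cut into 10 equal segments from the 5′ end. This segment held 53.6%, 44.0%, 29.4% and 36.0% of the TIA1 clusters as the input grew. RBFOX2 placed 77 clusters in TIA1 and 63.6% (51.9 to 74.3) of them in the same segment, against 36.0% (29.1 to 43.4) of the 186 for PTBP1 at the same input. The intervals treat clusters as independent, although those of TIA1 at 10000000 cells lay a median of 35 nt apart. The difference was not tested. In segment 6, by contrast, RBFOX2 had 5 clusters, against 48 for PTBP1. The SpyCatcher lists at 20 µg had 78.6% of 14 clusters (version 2.0) and 66.7% of 9 (version 1.0) in segment 8. At 40 µg these were 72.7% of 11 and 100% of 6, and segment 6 held 0 clusters in each SpyCatcher list. The high share in segment 8 was thus not particular to RBFOX2. The longest TIA1 cluster that was met in all 4 PTBP1 inputs and in RBFOX2 spanned chr2:70219120-70219196 (77 nt). It lies inside the window of 500 nt with most clusters, chr2:70218755-70219254, which held 18 clusters at 10000000 cells.

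TIAL1, the close relative of TIA1, lies on chromosome 10 (chr10:119573465-119596964, minus strand), and its clusters lay mostly toward its 5′ end. The PTBP1 lists held 30, 123, 152 and 133 clusters from the fewest to the most cells, and its density at 10000000 cells, 5.66 per kb, was exceeded by 1.59% of protein-coding genes. Segment 1, at the 5′ end, held 46.4% of the 84 RBFOX2 clusters, against 38.3% of the 133 PTBP1 clusters at the same input. At 1000, 10000 and 100000 cells it held 33.3%, 38.2% and 34.9%. In the SpyCatcher lists segment 1 held 48.0% of 25 clusters with version 2.0 and 50.0% of 14 with version 1.0 at 20 µg. At 40 µg it held 45.8% of 24 clusters with version 2.0 and 43.5% of 23 with version 1.0. The 5′ end was therefore the fullest segment, or tied with segment 2, in each of the 9 narrow-cluster lists. No TIAL1 cluster lay within 2000 nt of the 3′ end in any of them. Of the 18 clusters in the 10 genes that were met in all 9 lists, 5 lay in TIAL1. The longest of these covered chr10:119595501-119595616 (116 nt), and the fullest window of 500 nt, chr10:119595865-119596364, began 600 nt from the 5′ end and held 20 clusters at 10000000 cells.

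The genes with the most similar numbers over the 9 lists, by Euclidean distance of log2 of the number plus 1, included TASOR (0.867) and NVL (0.899) for TIA1. For TIAL1 they were PKM (0.815), CCT3 (0.883) and OGT (1.00). The median distance to all protein-coding genes was 15.0 for TIA1 and 15.5 for TIAL1. TASOR, for example, held 31, 139, 221 and 213 clusters in the 4 PTBP1 inputs, and PKM held 38, 128, 158 and 177. These are numbers of clusters and depend on span and depth as well as on binding.

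MATR3 and RAVER1 encode nuclear proteins that bind PTBP1 and act with it on splicing. MATR3 (chr5:139274101-139331677, plus strand) held 37, 131, 185 and 254 PTBP1 clusters from 1000 to 10000000 cells. Unlike TIA1, it gained clusters at every step. Its span includes that of SNHG4, a long noncoding RNA host gene on the same strand, which contained 16, 39, 29 and 61 of these clusters. Those clusters cannot be assigned to one RNA or the other. Outside SNHG4 the MATR3 share at 1000 cells was 3.39 times that at 10000000 cells, against 4.54 times (3.13 to 6.43) for the whole span. The longest cluster, chr5:139283437-139283950 (514 nt), lies in SNHG4. It was 1 cluster at 10000000 cells, and the lists of 1000, 10000 and 100000 cells had 15, 11 and 9 clusters on it. Numbers of clusters at low input therefore partly count pieces of a wide region. The other concentration lay in segments 6 and 7, where RBFOX2 had 57 of its 106 MATR3 clusters, against 106 of 254 for PTBP1 at 10000000 cells.

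RAVER1 (chr19:10316212-10333529, minus strand) held 4, 39, 46 and 52 PTBP1 clusters. They sat at its 3′ end: 4, 34, 31 and 39 of them fell in segment 10. RBFOX2 placed 3 clusters in RAVER1, against 52 for PTBP1, and the SpyCatcher lists held 1 or 0. The 1 cluster met in all 4 PTBP1 inputs and in RBFOX2 was chr19:10316852-10316960 (109 nt), 694 nt from the 3′ end. It lay outside the fullest window, chr19:10316271-10316770, which had 19 PTBP1 clusters at 10000000 cells and 0 RBFOX2 clusters. RAVER2, the paralog of RAVER1, held 5, 23, 113 and 139 clusters in a longer span.

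U2AF2 and U2AF1 encode the large and small subunits of one splicing factor and were far apart in their numbers. U2AF2 (chr19:55655035-55674716, plus strand) held 15, 69, 86 and 119 PTBP1 clusters and had the highest density of the 10 genes at 10000000 cells, 6.05 per kb. At 1000 cells 13 of its 15 clusters were in segment 4, a share of 86.7% (59.5 to 98.3), and 30.3% (22.2 to 39.3) were there at 10000000 cells. RBFOX2 placed 27 of 49 U2AF2 clusters in segment 4, or 55.1%, against 36 of 119 for PTBP1. Much of this rests on one region, chr19:55661934-55662272 (339 nt). It carried 14 clusters in RBFOX2 and was 1 cluster in the PTBP1 list of 10000000 cells. From 1000 to 100000 cells the PTBP1 lists had 11, 10 and 7 clusters on it, and the 4 SpyCatcher lists had 11 to 16. Its fullest window at 10000000 cells, chr19:55662832-55663331, lay further 3′ and held 1 cluster in the RBFOX2 list, against 19 for PTBP1 there and 0 at 1000 cells.

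U2AF1 (chr21:43092956-43107578, minus strand) held 0 RBFOX2 clusters and 0, 0, 5 and 5 PTBP1 clusters from 1000 to 10000000 cells. Of the SpyCatcher lists only version 2.0 at 20 µg had one. Its density at 10000000 cells was 0.342 per kb, and 45.0% of protein-coding genes were denser. hg38 holds a near-identical copy of U2AF1, LOC102724594, which had 0, 1, 2 and 2 clusters. Reads shared between the copies may have been dropped or divided, and the way they were handled is not given in the sources used here, so the U2AF1 numbers are uncertain.

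ELAVL1 and KHSRP act on AU-rich RNA with contrasting roles: ELAVL1 (HuR) stabilises many such messages, whereas KHSRP promotes their decay and also takes part in microRNA processing and splicing. ELAVL1 (chr19:7958573-8005641, minus strand) held 1, 21, 55 and 134 PTBP1 clusters. No other of the 8 genes with at least 10 clusters at 10000000 cells lost as large a part of its clusters at lower input. Its share at 1000 cells was 0.233 times (0.00585 to 1.32) that at 10000000 cells. Of protein-coding genes tested, 57.4% had a higher ratio at 1000 cells, so ELAVL1 lay near their middle. RBFOX2 had 3 clusters in ELAVL1, against 134 for PTBP1. None of the 134 was met in all 4 inputs, and 66.4% were met at 10000000 cells alone among the 9 lists, against 37.6% for the 10 genes and 54.6% for all protein-coding genes. The ELAVL1 clusters at 10000000 cells fell into 2 groups, 56 in segments 4 and 5 and 60 in segment 10. The fullest window, chr19:7962204-7962703, was 3631 nt from the 3′ end and held 19 of them.

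KHSRP (chr19:6413102-6424811, minus strand) showed the opposite pattern. Its numbers were 31, 67, 60 and 68 PTBP1 clusters. At 10000 cells it thus had 98.5% of its number at 10000000 cells, from a list with 248168 clusters, against 964422 at 10000000 cells. The KHSRP share at 1000 cells was 14.2 times (8.99 to 22.1) that at 10000000 cells, and 0.369% of protein-coding genes tested had a higher ratio. Its density at 1000 cells, 2.65 per kb, was exceeded by 0.130% of protein-coding genes. The clusters lay in the last 2 segments: 30, 64, 54 and 56 of them in segments 9 and 10 together. RBFOX2 placed 42 of its 48 KHSRP clusters there, against 56 of 68 for PTBP1. Of the 68 clusters, 17 (25.0%) were met in all 4 inputs, compared with 6.96% for the 10 genes and 1.4% for protein-coding genes. The longest that RBFOX2 met too covered chr19:6414641-6414725 (85 nt). The fullest window, chr19:6413264-6413763, ended 162 nt from the 3′ end and held 17 clusters at 10000000 cells.

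PCBP1 and PCBP2 bind C-rich RNA through KH domains and act in mRNA stability, translation and splicing. PCBP2 (chr12:53452102-53481162, plus strand) held 45 RBFOX2 clusters, and 8, 105, 129 and 164 PTBP1 clusters from the fewest to the most cells. Its share at 1000 cells was 1.52 times (0.646 to 3.07) that at 10000000 cells, an interval that includes 1. The clusters formed 2 groups, with 50 in segments 5 and 6 and 72 in segments 8 and 9 at 10000000 cells. The longest shared cluster, chr12:53474922-53474984 (63 nt), lay in the second group and was met in all 9 lists. The fullest window, chr12:53466397-53466896, lay in the first and held 19 clusters. PCBP1 (chr2:70087477-70089203, plus strand), a gene of 1.73 kb, held 1 RBFOX2 cluster, and 0, 0, 3 and 5 PTBP1 clusters. All 5 of the last list lay in segments 8 to 10 of its span, and because the gene is short its density at 10000000 cells was still 2.90 per kb, close to that of RAVER1 (3.0) and ELAVL1 (2.85).

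RefSeq promoter windows were read for 8 of the 10 genes, all but RAVER1 and ELAVL1. PCBP2 and U2AF2 were the 2 of these 8 in which a cluster of the 10000000-cell list lay wholly upstream of the RefSeq start. Such clusters occurred in 2 of the 10 windows of these 8 genes and in 2.22% of 35116 RefSeq promoter windows. That of U2AF2 was 3 nt wide, at positions -5 to -3 relative to the start. The stretch is shown because the PTBP1 lists of 100000 and 10000000 cells both placed clusters before the annotated start of PCBP2, some of them at the same bases. It covers chr12:53451852-53452001 on the plus strand (RefSeq, GRCh38.p14), positions -250 to -101 relative to the start, with the bases under a cluster of either list in capitals.
PCBP2 upstream stretch: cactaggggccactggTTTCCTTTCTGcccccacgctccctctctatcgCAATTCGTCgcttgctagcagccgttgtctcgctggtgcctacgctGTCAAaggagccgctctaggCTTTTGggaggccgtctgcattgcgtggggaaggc
The first capitals, TTTCCTTTCTG, were covered at both inputs, 11 nt at 100000 cells and 10 nt at 10000000 cells. CAATTCGTC was covered at 10000000 cells, with 4 of its bases at 100000 cells too, while GTCAA and CTTTTG were covered at 100000 cells alone. Of the 31 bases in capitals 74.2% were C or T, compared with 58.7% of the whole window and a median of 50.0% over all windows. In the stretch shown, CTCTCT was found once on the sense strand and lay outside the capitals, and 6.60% of RefSeq windows hold it on that strand. TCTT, TTTTT and TGCATG were not found on either strand, while 66.0%, 28.0% and 5.19% of windows hold them on one strand or the other. A match or its absence says only that these letters are or are not in the window.

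Which genes keep a larger or smaller share of a PTBP1 list as the input falls was asked by dividing each gene's share by its share at 10000000 cells. This was done for genes with at least 10 clusters there, 8 of the 10 genes and 8954 protein-coding genes. The 8 genes held 52 to 254 clusters there, and the protein-coding genes were not matched to them in number. Where few clusters are counted, the ratio at 1000 cells moves in large steps. All these comparisons, and the one with RBFOX2, share the list of 10000000 cells. At 1000 cells 6 of the 8 had a ratio of 2 or more, against 15.1% of protein-coding genes. KHSRP came first at 14.2, followed by TIAL1 at 7.04 (4.57 to 10.5), TIA1, MATR3, U2AF2 at 3.93 (2.13 to 6.75) and RAVER1 at 2.40 (0.630 to 6.52), whose interval includes 1. ELAVL1 alone fell under the inverse threshold, which 53.1% of protein-coding genes did. The median ratio was 4.24 for the 8 genes and 0.422 for protein-coding genes.

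At 10000 cells 7 of the 8 reached a ratio of 2, against 10.7% of protein-coding genes, and none fell under the inverse, against 37.0%. MATR3 was at the threshold with 2.0 (1.61 to 2.48). Outside SNHG4, a choice made after seeing the data, it had 1.85, which leaves 6 of the 8. ELAVL1 had 0.609 (0.365 to 0.969). At 100000 cells 0 of the 8 passed in either direction, where 1.18% of protein-coding genes were at 2 or more and 15.2% at the inverse or less. The median was then 1.05 for the 8 genes and 0.885 for protein-coding genes. TIA1 at 1.49 (1.22 to 1.82) and TIAL1 at 1.43 (1.13 to 1.82) had intervals above 1, and ELAVL1 at 0.514 (0.369 to 0.709) an interval below it.

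Because a wide cluster at high input can appear as several at low input, the shares were also taken over covered bases, a measure added after the numbers had been seen. At 1000 cells 5 of 8 genes then reached a ratio of 2, with a median of 2.86, against 12.2% of protein-coding genes with a median of 0.375. KHSRP had 8.29, MATR3 5.05, TIAL1 3.89, TIA1 3.26 and U2AF2 2.46, and RAVER1 came to 1.21. At 10000 cells the count was 4 of 8 (TIA1, TIAL1, KHSRP and PCBP2), against 7.12% of protein-coding genes. The order of the genes thus changed with the measure, and KHSRP was highest at 1000 cells under both.

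RBFOX2, which recognises GCAUG, was compared with PTBP1 at the same input of 10000000 cells, where its list was 0.122 times as long. Of the 8 genes 6 had a ratio of shares of 2 or more, against 12.7% of protein-coding genes, and 2 were at the inverse or less, against 46.1%. The 6 were KHSRP at 5.79 (3.92 to 8.5), TIAL1 at 5.18 (3.89 to 6.86), MATR3 at 3.42 (2.7 to 4.31), TIA1 at 3.40 (2.57 to 4.45), U2AF2 at 3.38 (2.37 to 4.75) and PCBP2 at 2.25 (1.58 to 3.15). RAVER1 at 0.473 (0.0945 to 1.46) and ELAVL1 at 0.184 (0.0374 to 0.548) were the 2 others, each with 3 RBFOX2 clusters. The median was 3.39 for the 8 genes and 0.566 for protein-coding genes. Set against the PTBP1 list of 10000 cells, which is nearer in length, 0 of 8 reached 2, where 5.45% of protein-coding genes did, and RAVER1 and ELAVL1 were at the inverse or less, where 21.1% were. The median was then 1.20 for the 8 genes and 0.858 for protein-coding genes. The high ratios against 10000000 cells therefore depended on which PTBP1 list was used.

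SpyCatcher 2.0 and SpyCatcher 1.0 could be compared in 6 genes with at least 10 clusters over both lists. At 20 µg KHSRP had 29 clusters with version 2.0 and 9 with version 1.0, a ratio of shares of 2.13 (0.979 to 5.10). It was the 1 gene of 6 at 2 or more, against 10.8% of protein-coding genes. U2AF2 had 25 clusters with version 2.0 and 38 with version 1.0, a ratio of 0.434 (0.251 to 0.738), and was the 1 gene at the inverse or less, against 8.25%. At 40 µg 0 of 6 passed in either direction, against 9.45% and 5.62%. KHSRP then had 22 clusters with version 2.0 and 15 with version 1.0, and U2AF2 had 41 with version 2.0 and 16 with version 1.0, a ratio of 1.63 (0.897 to 3.12). Both genes thus lay on opposite sides of 1 at the 2 amounts. TIA1 was above 1 at both, at 1.03 (0.414 to 2.69) and 1.17 (0.396 to 3.85), with intervals that include 1. The median over the 6 genes was 1.10 at 20 µg and 0.986 at 40 µg, compared with 0.989 and 0.956 for protein-coding genes.

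Clusters of the other lists fell on PTBP1 clusters of 10000000 cells more often in the 10 genes than across protein-coding genes. A shared nucleotide on the same strand was counted as overlap. For the PTBP1 inputs of 1000, 10000 and 100000 cells the share was 93.5% (88.4 to 96.8), 83.3% (80.3 to 85.9) and 71.4% (68.4 to 74.3) in the 10 genes, compared with 73.0%, 75.5% and 56.0%. For RBFOX2 it was 88.7% (85.3 to 91.6) in the 10 genes and 81.8% in protein-coding genes. In the SpyCatcher lists it was 97.1% for version 2.0 and 93.8% for version 1.0 at 20 µg, and 91.9% and 96.8% at 40 µg, compared with 81.0% to 82.9% of protein-coding genes. The bases available to overlap were also more in these genes, since clusters at 10000000 cells covered 12.6% of the KHSRP span, 8.87% of U2AF2, 8.29% of TIAL1 and 5.41% of TIA1. The part of the overlap that follows from this coverage was not tested.

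Within the 10 genes the overlap differed from gene to gene. At 100000 cells it was 57.5% of 221 clusters in TIA1, 71.7% of 152 in TIAL1 and 88.3% of 60 in KHSRP. All 31 KHSRP clusters and all 15 U2AF2 clusters of 1000 cells overlapped one. In the other direction, clusters of 10000000 cells in the 10 genes were met by 7.77%, 39.3% and 52.9% at 1000, 10000 and 100000 cells, compared with 1.80%, 15.9% and 41.5% across protein-coding genes. Of the 1120 clusters 78 were met in all 4 inputs and 64 of these in RBFOX2 too. Across protein-coding genes 12422 of 899487 were met in all 4 inputs, 9680 of these in RBFOX2 too, and 1745 in all 9 lists. The 18 met in all 9 lists lay in TIAL1 (5), KHSRP (4), MATR3 (3), PCBP2 (3), U2AF2 (2) and TIA1 (1). These 18 were 16 to 514 nt wide, against a median of 7 nt for the 1120. A wide cluster has more bases to share, and the part this plays was not tested.

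**Figure D1:**
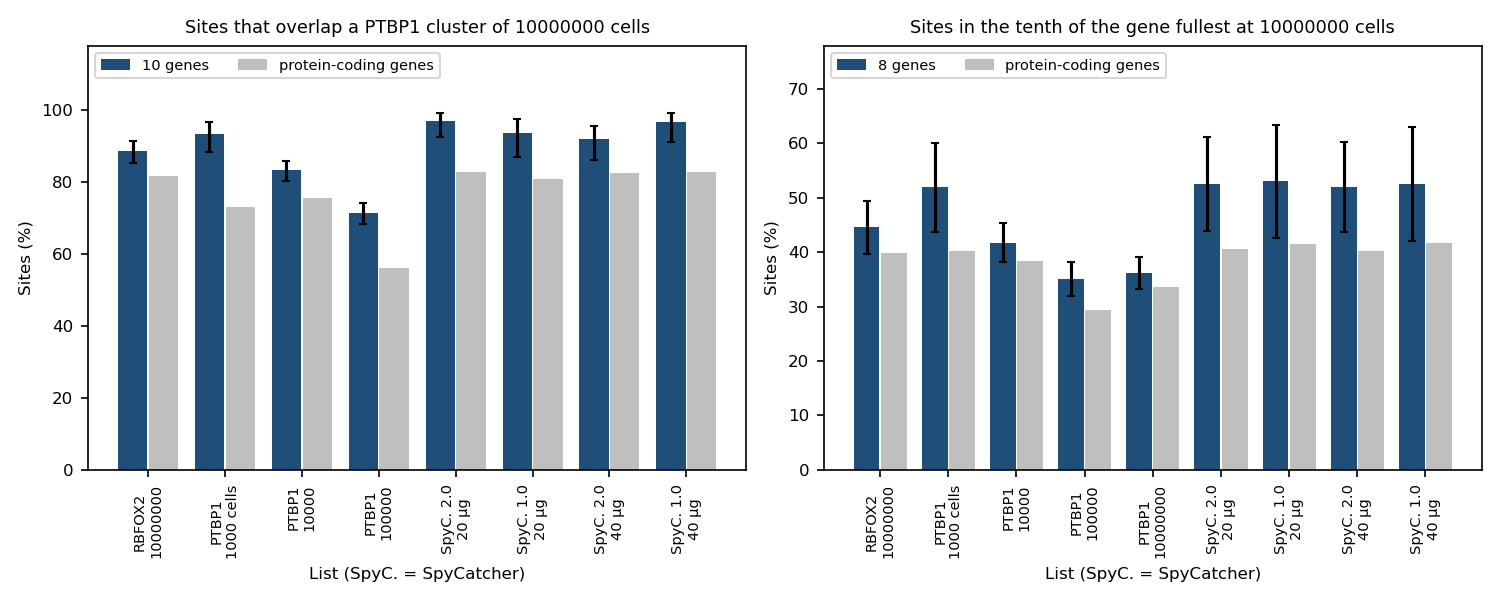
Left, percentage of sites that share at least 1 nt with a PTBP1 cluster of 10000000 cells; right, percentage of sites in the segment of each gene, of 10 equal ones, that was fullest at 10000000 cells. Dark bars are the genes described (with exact 95% counting intervals) and grey bars protein-coding genes; on the left the dark bars run from 71.4% to 97.1% and exceed the grey ones in all 8 lists.

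The segment that was fullest at 10000000 cells, taken gene by gene in the 8 genes with at least 10 clusters, held 51.9% (43.8 to 60.1) of their clusters at 1000 cells, 41.8% at 10000, 35.0% at 100000 and 36.1% at 10000000. For protein-coding genes these shares were 40.2%, 38.4%, 29.4% and 33.6%. RBFOX2 had 44.6% (39.7 to 49.5) there in the 8 genes and 39.9% in protein-coding genes. The segment was chosen on the list of 10000000 cells, so its share in that list is a description. The last 2000 nt held 21.4%, 16.2%, 13.2% and 15.0% of the clusters of the 10 genes from 1000 to 10000000 cells, compared with 12.3%, 9.40%, 4.54% and 7.76% in protein-coding genes. KHSRP accounted for 28 of the 33 at 1000 cells, and without it, a choice made after seeing this, the shares at the 4 inputs were 4.07%, 8.69%, 8.28% and 11.2%. Those at 1000 and 10000 cells were then below the shares in protein-coding genes. At 10000000 cells KHSRP gave 50 of 168, RAVER1 39 and ELAVL1 22.

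Other splicing and RNA-binding genes were read beside these 10, with the 15.1% of protein-coding genes at 2 or more, the 53.1% at the inverse or less and their median of 0.422 at 1000 cells as the background. One set held genes for factors of the 3′ splice site or its pyrimidine tract, and included PTBP1 itself and PTBP3. Of its 7 genes with at least 10 clusters at 10000000 cells, 1 had a ratio of shares of 2 or more at 1000 cells. This was SF1, the branch point binding protein, with 29, 55, 57 and 57 clusters from 1000 to 10000000 cells and a ratio of 15.9. Another 5, with PTBP1 (0) and PTBP3 (0.446) among them, were at the inverse or less, and the median was 0.444. Of 6 genes for U1 ribonucleoprotein components, the particle that TIA1 and TIAL1 assist, 1 was at 2 or more (LUC7L2 at 2.28) and 4 at the inverse or less, with a median of 0.480. Of 12 further genes for binders of U-rich, C-rich or AU-rich RNA, 9 had at least 10 clusters at 10000000 cells. Of these 9, 4 were at 2 or more and 3 at the inverse or less, with a median of 1.78. The 4 were FUBP1 at 7.23, HNRNPK at 6.05, HNRNPC at 5.18 and HNRNPD at 4.57. The splice site and U1 lists thus had medians near that of protein-coding genes, and ratios of 2 or more at low input were also seen outside the 10 genes. Among paralogs of the 10 genes, ELAVL4 had 0 clusters in all 9 lists and ELAVL2 had 3, 1, 87 and 83 in the PTBP1 inputs.

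The 6 Cas13 lists described here placed 22 sites in the 10 genes, of which 21 came from the proteins with no guide. With dPspCas13b the guide EZH2g1 gave 0 sites in a list of 59 and EZH2g2 gave 1 of 625, against 12 of 4701 with no guide. Per 10000 sites the upper end for EZH2g1, with a count of 0, is 625. The value is 16.0 (0.405 to 89.1) for EZH2g2 and 25.5 (13.2 to 44.6) with no guide. With dRfxCas13d the guides EZH2g1 and EZH2g2 gave 0 sites in lists of 966 and 1994, against 9 of 2808 with no guide. Per 10000 sites the upper ends are 38.2 for EZH2g1 and 18.5 for EZH2g2, and the value with no guide is 32.1 (14.7 to 60.8). The list of one further guide, not described here, held 0 of 123 sites in the 10 genes with dPspCas13b and 5 of 2138 with dRfxCas13d, so guide lists were not free of such sites. The intervals of the 4 guide lists all reach into the interval with no guide of the same protein. Whether the share was lower with a guide was not tested. The 12 sites of dPspCas13b with no guide lay in 5 of the 10 genes (10.4% of protein-coding genes had a site), and were 9 after sites within 10 nt were merged. The 9 of dRfxCas13d lay in 4 genes (9.75% of protein-coding genes), and were 8 after merging. With EZH2g2 and dPspCas13b the site was in 1 gene, where 2.57% of protein-coding genes had one. The share for EZH2g1 was 0.274% with dPspCas13b, and for EZH2g1 and EZH2g2 with dRfxCas13d it was 4.18% and 5.43%.

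Of the 21 sites with no guide 14 lay in ELAVL1 or PCBP2. dPspCas13b with no guide had 5 sites in ELAVL1, of which chr19:7963287-7963403 and chr19:7963367-7963478 overlapped each other near 90% of the span and covered PTBP1 clusters of 10000000 cells. The pair chr19:7991619-7991743 and chr19:7991647-7991882, near 29% of the span, and the site chr19:7981086-7981242 covered none. dRfxCas13d with no guide had 1 site in ELAVL1, chr19:7963494-7963742, with 15 nt between it and the nearest dPspCas13b site. TIA1, TIAL1, U2AF1, U2AF2 and PCBP1 had 0 sites in all 6 Cas13 lists described here. In each of these lists 10.4% of protein-coding genes or fewer had a site, so 0 sites was common. PTBP1 had 186, 133 and 119 clusters at 10000000 cells in TIA1, TIAL1 and U2AF2.

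In PCBP2 dRfxCas13d had 5 sites with no guide, chr12:53455836-53456019, chr12:53459204-53459421, chr12:53468712-53468852, chr12:53471572-53471759 and chr12:53474803-53474938. dPspCas13b had 3, at chr12:53455876-53455995, which lies inside the first of those, and at chr12:53479534-53479673 and chr12:53479620-53479757 near the 3′ end. The site chr12:53474803-53474938 overlapped the PCBP2 cluster named above that was met in all 9 narrow-cluster lists. KHSRP had sites of both proteins at one place, chr19:6413832-6413961 for dPspCas13b and chr19:6413820-6413977 for dRfxCas13d, and dPspCas13b had another at chr19:6413561-6413676. All 3 covered PTBP1 clusters at every input.

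MATR3 had 1 dPspCas13b site with no guide, chr5:139330021-139330160, and 2 overlapping dRfxCas13d sites, chr5:139308049-139308246 and chr5:139308148-139308321, none of them on a PTBP1 cluster of 10000000 cells. RAVER1 had 1 dPspCas13b site with the guide EZH2g2, chr19:10323140-10323277, which was 2191 nt from the nearest such cluster, and 1 with no guide, chr19:10317306-10317444, which covered 2 of them. Over the 10 genes, 8 of the 12 dPspCas13b sites and 4 of the 9 dRfxCas13d sites with no guide covered a PTBP1 cluster of 10000000 cells. Across protein-coding genes the shares were 50.6% and 36.8%. Libraries made without ultraviolet light, and those labelled gNT, were not analysed here, so sites that need no crosslink cannot be told apart from the others.

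**Figure D2:**
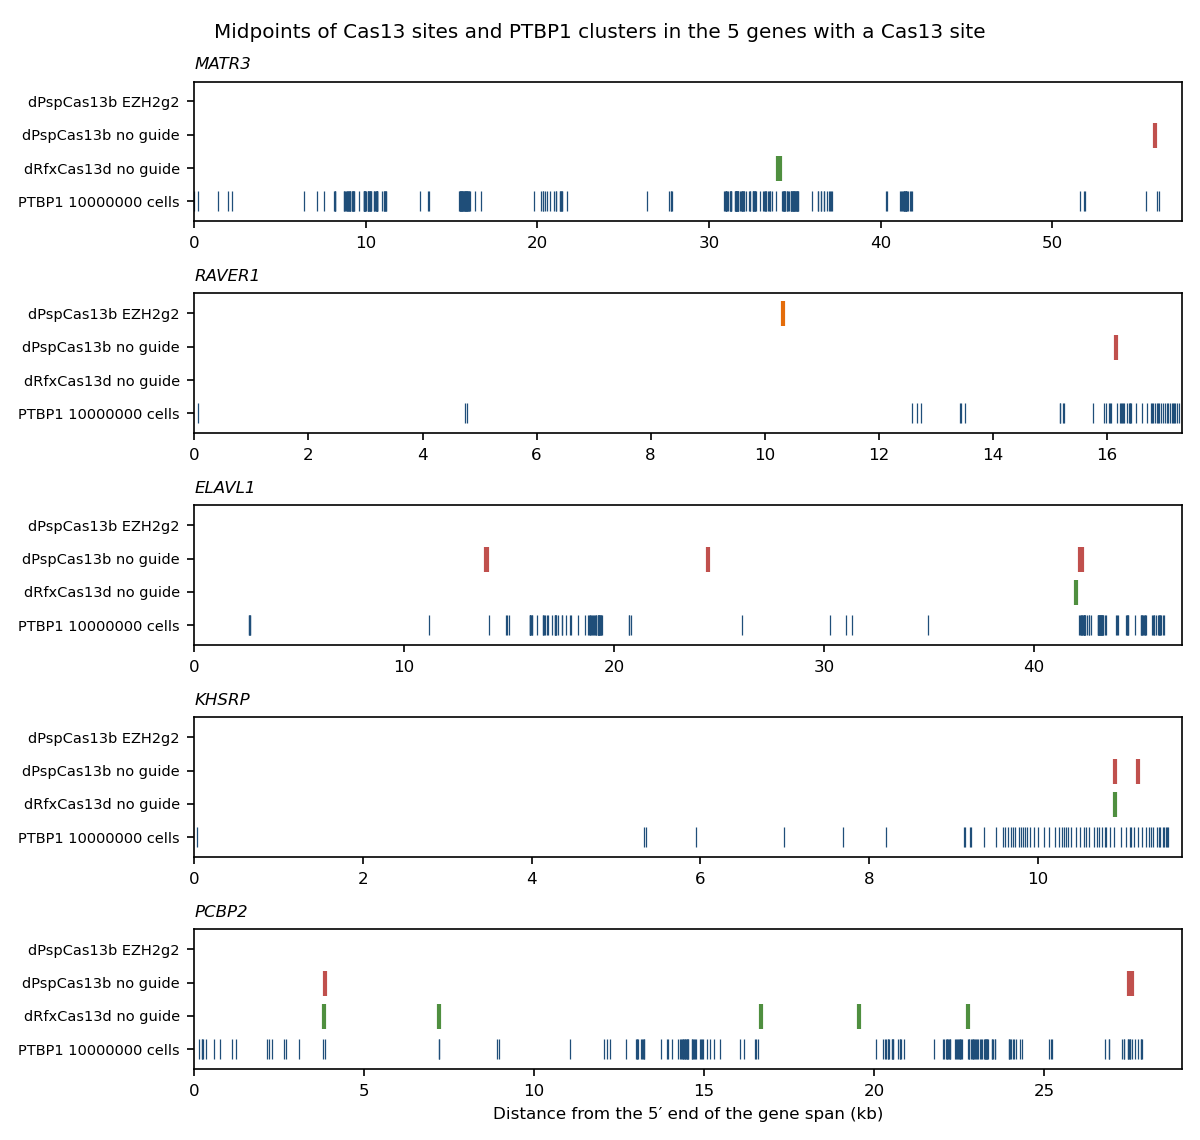
Midpoints of Cas13 sites (thick marks) and of PTBP1 clusters at 10000000 cells (thin lines, bottom row) along the 5 genes that had a Cas13 site, by distance from the 5′ end of the span in kb. Sites of both Cas13 proteins coincide at 1 place in KHSRP and 1 in PCBP2, and the EZH2g2 site of dPspCas13b in RAVER1 lies away from any PTBP1 cluster.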

How the data were processed

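The deposited lists hold start and end positions and a strand, with no counts, scores or depth; starts counted from 0 in the files are given from 1. Per the submitters' processing notes, reads went through Trim Galore 0.0.6 and STAR 2.7.9a on hg38. The sources used here name no site caller, thresholds or pooling of libraries, and each list is tied to the first library of its group. Gene spans came from RefSeq (GRCh38.p14), without exons, so exonic, intronic and UTR positions are not given. Strands came from RefSeq promoter and miRNA tables, or from PTBP1 clusters of 10000000 cells where a gene had at least 3 with at least 90% on 1 strand. Where both were known, 96.6% of 8542 genes had the same strand, and 2447 genes with neither were counted on both strands. The 10 genes and the related lists were chosen with earlier results of these data known. All 10 genes were named, with every Cas13 site of the lists described, the longest cluster shared by all PTBP1 inputs and RBFOX2, the fullest window of 500 nt, and the 3 genes nearest to TIA1 and to TIAL1, of which 1 is not reported here. Of the 17 lists, those of one further guide are not described. Shares have Clopper-Pearson 95% intervals and counts exact Poisson intervals. The counting and overlap code, tested on simulated data, gave 0 wrong answers in 4000 overlaps and 800 counts. Python 3.11.15, numpy 2.4.6, pandas 2.3.3, scipy 1.17.1 and matplotlib 3.10.9 were used.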

Additional observations from a re-analysis of the deposited data

Results flagged for a closer look

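In 5 genes the ratio of the share of the list with SpyCatcher 2.0 to that with SpyCatcher 1.0 lay on opposite sides of 1 at the 2 amounts of SpyCatcher. The difference between the amounts was not tested, since each list stands for 1 library. U2AF2 had 0.434 at 20 µg and 1.63 at 40 µg. KHSRP had 2.13 at 20 µg and 0.935 at 40 µg. TIAL1 had 1.18 and 0.665 at the same amounts, and PCBP2 had 1.32 and 0.917. MATR3, at 0.989 and 1.04, was near 1 at both. Of these 10 ratios, that of U2AF2 at 20 µg alone had a counting interval that excludes 1.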

How the results depend on the processing

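No paired analysis was possible because no group has more than 1 list. Of 179 alternative values, 146 stayed within 1.5 times the count as reported or, for shares, within its 95% counting interval, 33 moved beyond that and 0 reversed; the cause was not tested except where the alternative itself removes sites. Joining sites within 10 nt left 481, 621 and 649 clusters in the 10 genes at 10000, 100000 and 10000000 cells, 1 gene at the inverse of 2 or less for RBFOX2 over PTBP1, 0 and 1 genes at 2 or more for SpyCatcher 2.0 over 1.0 at 20 and 40 µg, and 12.9% in the last 2000 nt at 10000000 cells. Leaving out the gene with most sites, chosen after seeing the data, left 58 clusters for SpyCatcher 1.0 at 20 µg (without U2AF2), 7 sites for dPspCas13b (without ELAVL1) and 4 for dRfxCas13d (without PCBP2) with no guide, and an overlap of 75.7% at 100000 cells (without TIA1). Covered bases, also added later, gave 4 genes at 2 or more at 10000 cells and 1 at the inverse or less at 100000 cells. With sites of at least 5 nt that last count was again 1, and overlaps were 86.5% at 10000 and 74.7% at 100000 cells. Allowing 20 nt around a cluster gave 91.3% and 84.1% at 10000 and 100000 cells, 92.8% for RBFOX2 and 95.9% for SpyCatcher 2.0 at 40 µg, and asking for at least 50% of the width gave 67.0% at 100000 cells. With the PTBP1 list of 10000 cells in place of 10000000, RBFOX2 had 0 genes at 2 or more. Taking the last of 10 segments in place of 2000 nt gave 6.49% for RBFOX2 and 12.4% for SpyCatcher 2.0 at 20 µg. Without KHSRP, added later, the last 2000 nt held 4.07%, 8.69%, 8.28% and 11.2% at the 4 PTBP1 inputs and 2.45% for RBFOX2. They held 2.78% for SpyCatcher 2.0 and 2.30% for SpyCatcher 1.0 at 20 µg, and 3.17% and 0% at 40 µg. Lists without depth limit every comparison to positions.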

Other observations

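MIR3940, a microRNA gene, lies inside KHSRP on the same strand at chr19:6416410-6416511. No cluster of the 9 narrow-cluster lists came within 50 nt of it, and the nearest PTBP1 cluster of 10000000 cells was 93 nt away. Short clusters near the start of KHSRP were seen at 100000 cells (chr19:6424778-6424782, 5 nt) and at 10000000 cells (chr19:6424777-6424780, 4 nt). MAP3K12 overlaps the 3′ end of PCBP2 on the other strand. Its span contained 6 PCBP2 clusters at 10000000 cells, and 0, 3 and 2 at 1000, 10000 and 100000 cells.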
